A study of Mus musculus with 13 samples.

Results

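The 9 genes described here place cells inside lymphoid tissue and were followed through intact lymph nodes draining a tumour (tdLN) and intact B16F10 tumours: the chemokines Ccl19, Ccl21a, Cxcl12 and Cxcl13, the receptors Ccr7, Cxcr4, Cxcr5 and Gpr183, and Ch25h, an enzyme that starts the synthesis of the Gpr183 ligand. Homeostatic chemokines are made constitutively by stromal cells of the node and draw lymphocytes into separate compartments. Ccl19 and Ccl21 attract Ccr7-bearing T cells and mature dendritic cells to the T zone, Cxcl13 attracts Cxcr5-bearing B cells and follicular helper T cells to the follicle, and Cxcl12 acts on the broadly expressed receptor Cxcr4. Gpr183 senses oxysterols, oxidised forms of cholesterol that Ch25h begins to make, and guides activated B cells, T cells and dendritic cells along the edges of these compartments.

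The genes were chosen by symbol, by mapping the Ensembl identifiers of the count tables to the GENCODE M21 annotation. They are 9 of 49315 identifiers, and all 9 were present in the tables. A second identifier for Ccl19 and for Ccl21a, each on the scaffold JH584294.1, held no count in any library, so the values below are those of the chromosomal rows.

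The Foxp3ΔJag1 mice carried Foxp3eGFP-Cre-ERT2, a Cre recombinase that tamoxifen switches on in cells using the Foxp3 promoter, and Jag1 fl/fl, floxed alleles of a gene for a Notch ligand. Foxp3 defines regulatory T cells. Deletion was therefore directed at Foxp3-expressing cells, which are only a part of a whole node. The Foxp3Ctrl mice are labelled wild type in the sample records and Jag1 fl/wt in the design text, and their genotype is not settled by the labels. All mice were female, and the controls were dosed as well: when 6 to 8 weeks old, each mouse received 5 doses of tamoxifen (0.1 mg per gram body weight, in corn oil). A washout of 9 days followed, and cells of B16F10, a pigmented mouse melanoma line, were then placed in the flank skin with matrigel, in mice no older than 11 weeks. Groups of 3 libraries each were analysed: Foxp3ΔJag1 tdLN, Foxp3Ctrl tumours and Foxp3Ctrl tdLN. By their library names, the control tumours and the control nodes came from the same 3 mice. Both comparisons below use the same 3 Foxp3Ctrl tdLN libraries, so their results are not independent of each other.

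Total counts ranged from 32117478 to 44540888 reads per library. Summed B-cell markers were at 3962 to 4399 CPM (reads of a gene per 1000000 counted reads of the library) in Foxp3ΔJag1 tdLN, 4.69 to 7.41 CPM in Foxp3Ctrl tumours and 3955 to 4275 CPM in Foxp3Ctrl tdLN. Summed melanoma markers were at 13.4 to 17.1 CPM in Foxp3ΔJag1 tdLN, 17648 to 23065 CPM in Foxp3Ctrl tumours and 10.8 to 36.5 CPM in Foxp3Ctrl tdLN, so the tissue labels matched the markers. Jag1 itself was at 24.1 ± 3.58 CPM in Foxp3ΔJag1 tdLN and 23.2 ± 1.21 CPM in Foxp3Ctrl tdLN (SD, n = 3 each). Deletion was thus not detectable in whole nodes (edgeR adjusted p = 0.984). In such bulk libraries, fewer cells of a type and less RNA per cell cannot be told apart.

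Per kilobase of exon, the Cxcl13 row held the most counts of the 9 genes in nodes and the Ccl21a row the fewest. On this length-adjusted scale, mean levels in Foxp3ΔJag1 tdLN were 130.1 CPM per kb for Cxcl13, 97.1 for Ccr7, 58.4 for Cxcr4, 45.1 for Cxcl12, 37.3 for Cxcr5, 23.8 for Gpr183, 3.70 for Ch25h, 3.09 for Ccl19 and 0.129 for Ccl21a. The order of the means was the same in Foxp3Ctrl tdLN, where Cxcl13 averaged 107.2 and Ccr7 89.5 CPM per kb. Neighbours whose libraries overlapped were Ch25h and Ccl19 in Foxp3ΔJag1 tdLN, and Cxcl13 and Ccr7, Cxcr4 and Cxcl12, Cxcl12 and Cxcr5, and Ch25h and Ccl19 in Foxp3Ctrl tdLN. In Foxp3Ctrl tumours the order differed: Cxcr4 stood at the head with 7.35 CPM per kb, ahead of Cxcl12 with 4.29, Ch25h with 3.82, Ccr7 with 2.42, Cxcl13 with 0.844, Gpr183 with 0.543, Cxcr5 with 0.337 and Ccl19 with 0.0623, and Ccl21a had no count. Tumour libraries of neighbouring genes overlapped for Cxcl12 and Ch25h, Ch25h and Ccr7, Cxcl13 and Gpr183, and Gpr183 and Cxcr5. The length of Cxcl12, 8176 bp, is the union of all its annotated isoforms, so its level per kb is lower than a count over its main isoform alone would give.

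**Figure D1:**
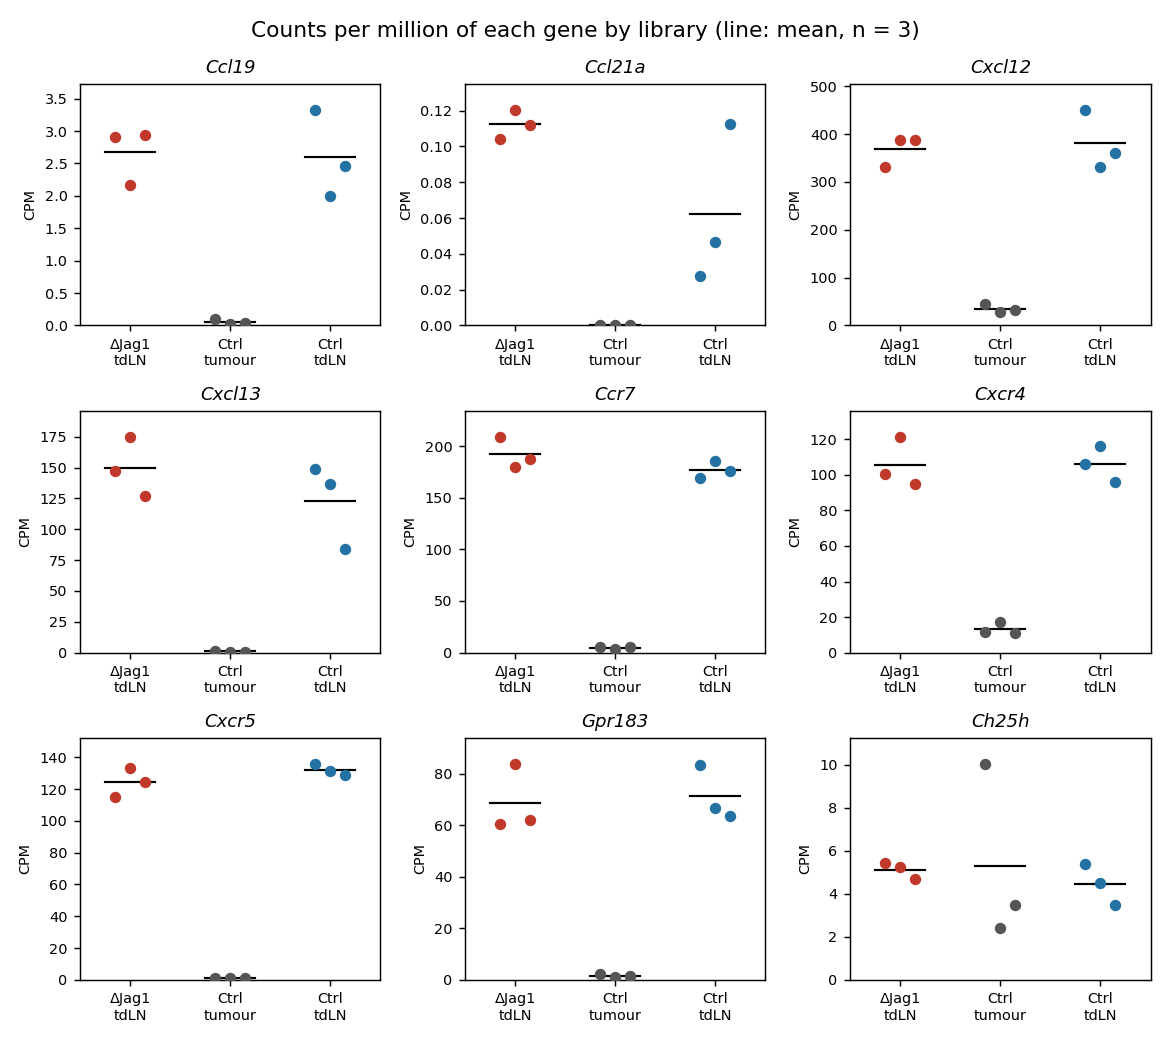
Level of each of the 9 genes (vertical axis, CPM, from 0, with its own scale in each panel) in the 3 libraries of each group, with a line at the mean. The Foxp3ΔJag1 and Foxp3Ctrl nodes overlap in every panel, while the tumours lie below all nodes in every panel except that of Ch25h.

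The first comparison set Foxp3ΔJag1 tdLN against Foxp3Ctrl tdLN and asked whether these positioning signals differ when Jag1 is targeted in regulatory T cells; the series title speaks of lymphatic remodelling by such cells in the draining node. None of the 9 genes separated the genotypes in whole nodes: libraries of the groups overlapped for every gene, while 7.29% of all genes tested had groups that did not overlap. By the edgeR quasi-likelihood test, 0 of the 8 genes that passed the filter on low counts were called at a Benjamini-Hochberg adjusted p under 0.05. Over all genes, 7 of 18440 were called (0.038%). At an unadjusted p under 0.05, 0 of the 8 were called by edgeR, against 3.15% of all genes tested, and DESeq2 and limma-voom called 0 of them after adjustment. Ccl21a did not pass the filter.

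The chemokines of the follicle and the stroma came through with many reads. Cxcl13, the follicular B-cell attractant made by follicular dendritic cells and other follicular stroma, was at 147, 175 and 127 CPM in Foxp3ΔJag1 tdLN and at 149, 136 and 84.4 CPM in Foxp3Ctrl tdLN. A single control node was low and the other nodes of both genotypes intermixed. The log2 fold change was 0.25 ± 0.25 (SE) with a 95% interval up to 0.88 and an edgeR adjusted p of 0.953, which leaves differences of up to 1.83-fold within the interval. Cxcl12, which retains Cxcr4-bearing cells in stromal niches, was at 331, 387 and 388 CPM in Foxp3ΔJag1 tdLN and at 451, 332 and 360 CPM in Foxp3Ctrl tdLN. Its highest and its second lowest library were both control nodes, and the log2 fold change was -0.07 ± 0.13 (SE; edgeR adjusted p = 0.958). Ccl19, a ligand of Ccr7 made by fibroblastic reticular cells, was at 2.92, 2.17 and 2.94 CPM in Foxp3ΔJag1 tdLN and at 3.33, 2.00 and 2.45 CPM in Foxp3Ctrl tdLN. These rest on only 72 to 131 reads per Foxp3ΔJag1 node and 86 to 121 per Foxp3Ctrl node. Both extremes of Ccl19 were control nodes, and the log2 fold change was 0.03 ± 0.25 (SE; edgeR adjusted p = 0.994). Ccl21a, the other Ccr7 ligand, had 4, 4 and 5 reads in Foxp3ΔJag1 tdLN and 1, 2 and 4 reads in Foxp3Ctrl tdLN, too few to test.

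The low counts of Ccl19 and Ccl21a have to be read beside their sequence copies. Both genes lie on chromosome 4 of GRCm38, minus strand, Ccl19 at chr4:42754525-42756577 and Ccl21a at chr4:42772860-42773993, in a region that carries several near-identical genes and pseudogenes. Of all stretches of 50 bases in the annotated transcripts, 51.97% of those of Ccl19 and 71.6% of those of Ccl21a recur in the transcript of another gene, and of all stretches of 100 bases 39.3% and 50.3% do. Ccl19 and the pseudogene Ccl19-ps1 differ at 4 of 327 aligned coding bases (T2C, C68A, C118T and A267C, with the base of Ccl19 named before the position and that of the copy after it, counted from the A of the Ccl19 start codon). Ccl21a and Ccl21b encode chemokines that act on the same receptor. Ccl21a and the chromosomal Ccl21b (chr4:42255767-42256432) differ at 2 of 402 coding bases (T84A and C194T, written the same way). The stretches around C118T (bases 88 to 147) and C194T (bases 164 to 223) show how little there is to tell the copies apart. They are taken from the GENCODE M21 transcripts and written 5′ to 3′ in the sense of the gene, with the differing base in capitals.
Ccl19: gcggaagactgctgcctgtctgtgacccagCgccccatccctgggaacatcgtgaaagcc
Ccl19-ps1: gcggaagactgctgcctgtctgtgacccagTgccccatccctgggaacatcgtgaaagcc
Ccl21a: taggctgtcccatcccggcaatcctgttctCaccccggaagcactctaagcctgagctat
Ccl21b: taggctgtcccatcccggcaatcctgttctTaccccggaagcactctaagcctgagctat
The sources used here give neither the read length nor the handling of reads that map to several places, and their part in the low counts was not tested.

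More reads were counted on the copies than on the genes themselves. The pseudogene Ccl19-ps1 (chr4:41921405-41923020) was at 18.9 ± 2.72 CPM in Foxp3ΔJag1 tdLN, 0.109 ± 0.115 CPM in Foxp3Ctrl tumours and 16.3 ± 3.70 CPM in Foxp3Ctrl tdLN (SD, n = 3 each). Gm12407 (chr4:41791989-41793601), which differs from Ccl19 at 2 of 324 aligned coding bases, was at 8.08 ± 0.998 CPM in Foxp3ΔJag1 tdLN, 0.0806 ± 0.0916 CPM in Foxp3Ctrl tumours and 7.64 ± 0.522 CPM in Foxp3Ctrl tdLN. Over the 6 rows that carry Ccl19 or its copies, the Ccl19 row held 9.05% of 3479 reads in Foxp3ΔJag1 tdLN and 9.73% of 3021 reads in Foxp3Ctrl tdLN. Over the 9 rows of Ccl21a and its copies there were 67 reads in Foxp3ΔJag1 tdLN and 61 in Foxp3Ctrl tdLN, 45 of them in each group on a Ccl21b row of the scaffold GL456350.1. That row is not the chromosomal Ccl21b whose sequence is shown above, which held no read in any library. When all rows of a family were summed, an alternative chosen after seeing the data, the log2 fold change between the genotypes was 0.14 for Ccl19 (edgeR adjusted p = 0.953) and 0.06 for Ccl21a (edgeR adjusted p = 0.990). The levels of Ccl19 and Ccl21a are therefore uncertain as to copy. If reads that map to several places were discarded, which the sources do not state, the summed rows lack them too. The position of Ccl19 and Ccl21a in the order above describes the deposited rows only. For Cxcl12, Cxcl13, Ccr7, Cxcr4 and Gpr183 no stretch of either length recurred in another annotated gene.

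**Figure D2:**
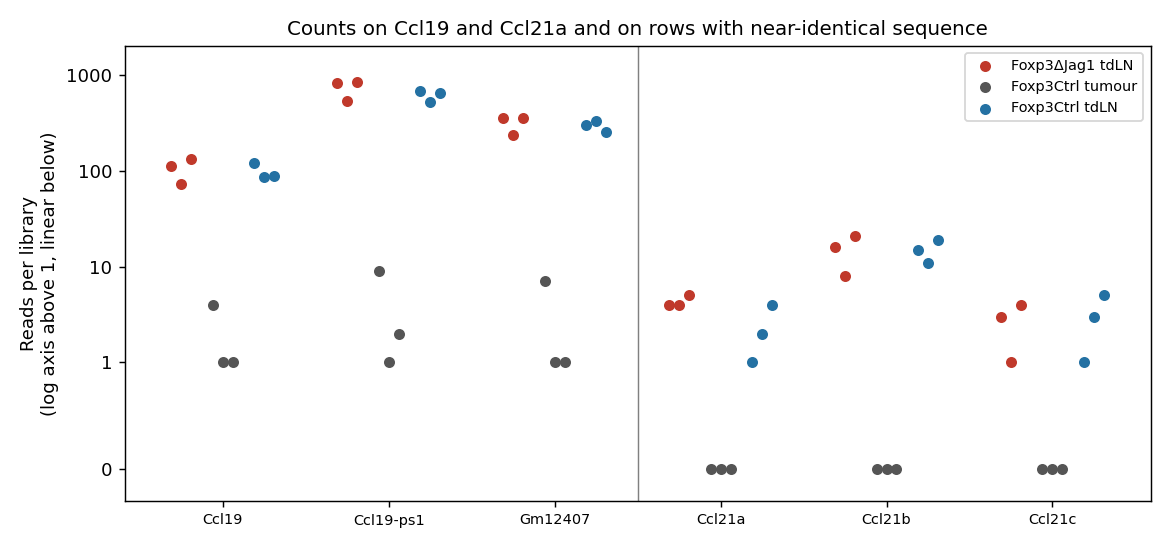
Reads per library (vertical axis, logarithmic above 1 and linear below) on the rows of Ccl19, Ccl19-ps1 and Gm12407 and of Ccl21a and the Ccl21b and Ccl21c rows of the scaffold GL456350.1, 3 libraries per group. In every node the Ccl19-ps1 row holds more reads than the Ccl19 row, and all Ccl21 rows shown have 0 reads in the tumours.

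The receptors intermixed between the genotypes as well. Ccr7, which brings naive T cells and mature dendritic cells to the T zone, was at 209, 179 and 188 CPM in Foxp3ΔJag1 tdLN and at 170, 186 and 176 CPM in Foxp3Ctrl tdLN (log2 fold change 0.09 ± 0.08 SE, edgeR adjusted p = 0.953). The ranges met between 179 and 186 CPM. Cxcr5, the receptor of Cxcl13, was at 115, 133 and 124 CPM in Foxp3ΔJag1 tdLN and at 136, 132 and 129 CPM in Foxp3Ctrl tdLN. Foxp3ΔJag1 replicate 2 lay among the controls and the other Foxp3ΔJag1 nodes just below them. With a log2 fold change of -0.11 ± 0.08 (SE, edgeR adjusted p = 0.953), Cxcr5 had the smallest unadjusted p of the 8 genes, 0.198 by edgeR. Cxcr4, the receptor of Cxcl12, was at 100.3, 121 and 95.1 CPM in Foxp3ΔJag1 tdLN and at 106, 116 and 95.9 CPM in Foxp3Ctrl tdLN, fully intermixed (log2 fold change -0.03 ± 0.12 SE, edgeR adjusted p = 0.985).

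The oxysterol pair overlapped between the genotypes too. Gpr183 was at 60.5, 83.8 and 62.1 CPM in Foxp3ΔJag1 tdLN and at 83.5, 66.8 and 63.6 CPM in Foxp3Ctrl tdLN. Each genotype had a single library near 83 CPM and the rest in the sixties (log2 fold change -0.08 ± 0.16 SE, edgeR adjusted p = 0.968). Ch25h, the cholesterol 25-hydroxylase, was at 5.44, 5.25 and 4.69 CPM in Foxp3ΔJag1 tdLN and at 5.37, 4.48 and 3.47 CPM in Foxp3Ctrl tdLN. The 2 lowest libraries were controls and the third control lay inside the Foxp3ΔJag1 range (log2 fold change 0.18 ± 0.20 SE, edgeR adjusted p = 0.953). Over the 8 tested genes the median log2 fold change was -0.0034, with 4 positive and 4 negative values, and the median over all genes tested was -0.0045. The 95% intervals differed in width: they ran from -0.09 to 0.28 for Ccr7 and from -0.30 to 0.07 for Cxcr5. They were wider for Cxcl13, from -0.38 to 0.88, and for Ccl19, from -0.53 to 0.58. For Gpr183 the interval ran from -0.46 to 0.31 and for Ch25h from -0.28 to 0.64, which leaves differences of up to 1.56-fold in Ch25h within it. Among the marker sums of other cells, only the epithelial one did not overlap between the genotypes. It was at 7.30 to 10.8 CPM in Foxp3ΔJag1 tdLN and at 12.9, 37.1 and 139 CPM in Foxp3Ctrl tdLN. Of its 5 tested genes 0 were called by edgeR (smallest adjusted p = 0.953). The other marker sums overlapped, fibroblastic reticular markers at 290.3 to 475 CPM in Foxp3ΔJag1 tdLN and 249.9 to 592 CPM in Foxp3Ctrl tdLN. Their part in the values of the 9 genes was not tested.

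**Figure D3:**
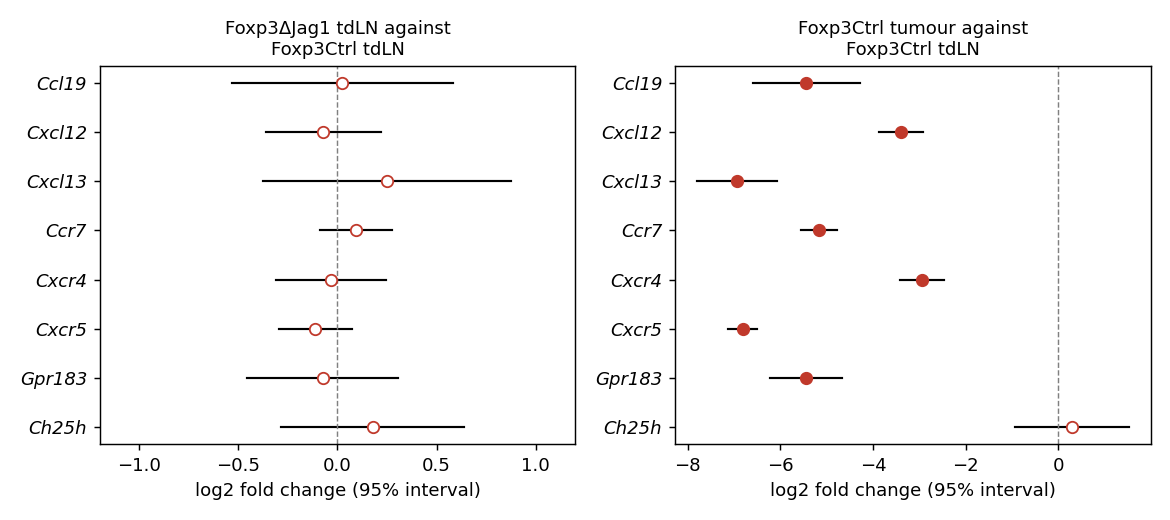
Log2 fold change (horizontal axis) with its 95% interval for the 8 genes that passed the filter on low counts, for Foxp3ΔJag1 tdLN against Foxp3Ctrl tdLN (left) and Foxp3Ctrl tumour against Foxp3Ctrl tdLN (right). Filled points have an edgeR adjusted p under 0.05: 0 on the left, and 7 on the right, all below 0.

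The second comparison set Foxp3Ctrl tumours against Foxp3Ctrl tdLN of the same mice. Tumour and node counts came from separate tables, so tissue cannot be told apart from any difference in handling between them. Of the 9 genes, 8 were lower in each tumour than in each node, and Ch25h alone overlapped. Among the 8 genes that passed the filter, 7 were called lower and 0 higher by edgeR, against 37.6% of 18566 genes called lower and 35.6% called higher. The median log2 fold change of the 8 was -5.30, beside -0.05 over all genes tested. Since tumour and node are different tissues, 73.2% of all genes were called in either direction, and a call by itself says little here. Libraries lay wholly lower in tumour for 41.5% of all genes tested. Marker sums of several cell types were lower in tumour as well. T-cell markers were at 61.1 to 82.1 CPM in Foxp3Ctrl tumours and 1655 to 2069 CPM in Foxp3Ctrl tdLN. High endothelial venule markers were at 51.1 to 76.4 CPM in tumours and 1838 to 2631 CPM in nodes, with Chst4 at 0 in all tumours. All 7 genes on the venule list were called lower by edgeR, but unevenly. Glycam1 made up most of the node sum, at 1894 CPM, and Cdh5 most of the tumour sum, at 50.9 CPM. Their log2 fold changes were -17.2 and -0.98. Follicular dendritic cell markers were at 192 to 279 CPM in tumours and 1879.7 to 2218 CPM in nodes. Of the 8 genes on the follicular dendritic cell list, 7 were called lower and 1 higher by edgeR, the higher being Sox9 at 1.66 on the log2 scale. The largest falls on that list were those of Fcer2a and Cr2, at -11.6 and -8.86 on the log2 scale. The median over the B-cell markers was -10.2, so this sum is not read here as a measure of follicular dendritic cells alone. The sum of the fibroblastic reticular markers, several of which other fibroblasts share, was higher, with 1223 to 3491 CPM in tumours and 249.9 to 592 CPM in nodes. The collagen genes Col1a1 and Col3a1 made up most of it, at 1016 and 986 CPM in tumours and 179.8 and 159.7 CPM in nodes. Of the 8 genes on that list, 4 were called higher and 3 lower by edgeR, the lower being Il7, Tnfsf13b and Pdgfra at -4.71, -3.50 and -1.42 on the log2 scale. Their part in the differences was not tested.

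Of the chemokines, Cxcl13 had the largest log2 difference among the 7 called genes. It was at 1.33, 0.708 and 0.872 CPM in Foxp3Ctrl tumours, against 84.4 to 149 CPM in Foxp3Ctrl tdLN. No tumour came near any node, and the log2 fold change was -6.94 ± 0.36 (SE, edgeR adjusted p = 4.55e-06), a level 123-fold lower in tumour with a 95% interval that starts at 67.5-fold. Cxcl12 differed less: it was at 44.4, 28.1 and 32.6 CPM in tumours, against 332 to 451 CPM in nodes. The log2 fold change was -3.39 ± 0.20 (SE, edgeR adjusted p = 4.17e-06), and tumours still held 1048 to 1667 reads of it. Ccl19 had 4, 1 and 1 reads in the tumours, against 121, 86 and 87 in the nodes, with a log2 fold change of -5.44 ± 0.50 (SE, edgeR adjusted p = 3.20e-05). Ccl21a had 0 reads in all 3 tumours, against 7 in the 3 nodes together. With the tumours put at a floor of 3 counts over the group, this is 2.25-fold lower. With the copies summed, Ccl19 had 27 reads in tumours and 3021 in nodes (log2 fold change -6.69, edgeR adjusted p = 3.71e-05). The summed Ccl21a rows had 0 reads in tumours and 61 in nodes, 19.6-fold lower against the same floor. These floors cover only the counting error of the tumour zeros. The node reads were taken as exact, so neither fold is a lower bound, least of all that from 7 reads. The direction was thus the same on the member row and on the summed rows, while the size moved.

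Among the receptors, Cxcr5 stood closest to Cxcl13. It was at 1.25, 1.15 and 0.965 CPM in tumours, against 129 to 136 CPM in nodes, with a log2 fold change of -6.81 ± 0.14 (SE, edgeR adjusted p = 8.24e-08). Cxcr5 shares 110 exonic bases with Bcl9l on the opposite strand, and whether the counting used strand is not stated in the sources used here. Bcl9l was at 66.2 ± 8.66 CPM in tumours and 138 ± 9.09 CPM in nodes (SD, n = 3 each). Ccr7 was at 5.57, 3.71 and 5.08 CPM in tumours, against 170 to 186 CPM in nodes (log2 fold change -5.16 ± 0.17 SE, edgeR adjusted p = 2.53e-07). Gpr183 was at 2.40, 1.00 and 1.31 CPM in tumours, against 63.6 to 83.5 CPM in nodes (log2 fold change -5.45 ± 0.33 SE, edgeR adjusted p = 6.97e-06). Tumour replicate 1 held the most Gpr183 of the 3 tumours and was still far below every node. Cxcr4, which many leukocytes, endothelial cells and tumour cells can carry, differed least of the called genes, with 11.5, 17.2 and 11.2 CPM in tumours, against 95.9 to 116 CPM in nodes (log2 fold change -2.94 ± 0.20 SE, edgeR adjusted p = 9.20e-06). 

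Ch25h alone showed no such gap. It was at 10.04, 2.39 and 3.46 CPM in tumours, against 5.37, 4.48 and 3.47 CPM in nodes. Tumour replicate 1 was above every node and the other tumours were below every node. The log2 fold change was 0.30 ± 0.52 (SE, edgeR adjusted p = 0.623) with all libraries and -0.53 without tumour replicate 1 (edgeR adjusted p = 0.164), so its direction rested on that library. In the same library the fibroblastic reticular marker sum was 3491 CPM, against 1710 and 1223 CPM in the other tumours, and the macrophage and monocyte sum was 767 CPM, against 499 and 608 CPM. The lymphatic endothelial, follicular dendritic cell, high endothelial venule, neutrophil and epithelial sums were also highest in that tumour. The B-cell, T-cell, follicular helper T and germinal centre, migratory dendritic cell, melanoma, adipocyte, and salivary gland and muscle sums were not. The part of these sums in the Ch25h value was not tested. Ch25h shares 159 exonic bases with Gm26902 on the opposite strand, which was at 0.280 ± 0.119 CPM in tumours and 0.509 ± 0.186 CPM in nodes (SD, n = 3 each), far below Ch25h itself.

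Cxcl13 and Ch25h, which behaved so differently between the tissues, had a short promoter pattern in common. RefSeq promoters (250 bases before to 50 after the start, GRCm38.p6) were found for 7 of the 9 genes, the exceptions being Ccr7 and Cxcr5, and both strands were searched for patterns picked after the values were known. The letters GGGNGATTT are the core of a site bound by RelB with p52, the transcription factor pair downstream of the lymphotoxin receptor, and that form is known from the mouse Cxcl13 promoter itself, so its presence there is no finding. It occurred in the promoters of Cxcl13 and Ch25h and in 0.791% of 32851 promoters. The letters TATAAA occurred in 3 of the 7 (Cxcl13, Ch25h and Cxcr4) and in 13.6% of all promoters, and GGGNNNTTC, a general NF-kappaB form that cannot match at the same place as GGGNGATTT, in 1 of the 7 (Cxcr4) and in 13.96%. The E-box CACGTG (7.15% of all promoters) and the STAT form TTCCNGGAA (1.15%) occurred in 0 of the 7. Both promoters are shown because they hold the least frequent of these patterns, Cxcl13 at chr5:95956689-95956988 on the plus strand and Ch25h at chr19:34475099-34475398 on the minus strand, 5′ to 3′ in the sense of the gene. Capitals mark GGGNGATTT, which starts at base 137 in Cxcl13 and 83 in Ch25h, and TATAAA, which starts at base 205 in Cxcl13 and 100 in Ch25h. The patterns in capitals do not overlap each other, and a match in letters is no evidence of binding.
Cxcl13: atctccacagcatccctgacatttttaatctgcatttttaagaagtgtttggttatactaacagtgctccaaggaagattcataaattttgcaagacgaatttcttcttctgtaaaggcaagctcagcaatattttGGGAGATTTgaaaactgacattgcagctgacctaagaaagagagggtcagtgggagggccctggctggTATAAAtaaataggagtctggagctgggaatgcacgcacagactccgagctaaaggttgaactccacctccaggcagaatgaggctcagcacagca
Ch25h: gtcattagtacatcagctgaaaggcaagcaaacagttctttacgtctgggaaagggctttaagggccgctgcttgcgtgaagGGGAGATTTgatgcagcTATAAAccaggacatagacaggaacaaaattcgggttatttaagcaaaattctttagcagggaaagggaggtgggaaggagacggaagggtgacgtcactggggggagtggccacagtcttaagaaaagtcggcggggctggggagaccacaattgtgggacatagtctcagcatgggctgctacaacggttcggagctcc

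Ratios within a library compare a ligand with its receptor, or a receptor with a marker of the cells that carry it, free of sequencing depth. In all, 11 ratio differences were tested by exact two-sided permutation over libraries, which with 3 against 3 cannot go below p = 0.1, and the smallest adjusted p was 0.367. On the log2 scale per kb, Cxcl13 over Cxcr5 was 1.28 ± 0.40 in Foxp3Ctrl tumours and 1.39 ± 0.41 in Foxp3Ctrl tdLN (SD, n = 3 each, exact p = 0.6). Ligand and receptor were 123-fold and 113-fold lower in tumour, and their ratio overlapped between the tissues. Cxcr5 over Ccr7 was -2.83 ± 0.36 in tumours and -1.17 ± 0.09 in nodes (SD, n = 3 each, exact p = 0.1), and no tumour overlapped a node. Cxcl12 over Cxcr4 was -0.78 ± 0.64 in tumours and -0.34 ± 0.29 in nodes, with overlapping libraries (SD, n = 3 each, exact p = 0.5). Ccr7 over Cd3e, a T-cell receptor subunit, was 0.85 ± 0.46 in tumours and 1.21 ± 0.31 in nodes, again overlapping (SD, n = 3 each, exact p = 0.3). These tests leave out that tumour and node came from the same mice. Within the 3 mice, tumour minus node was -0.13, -0.81 and -0.37 for Cxcl12 over Cxcr4 and -1.83, -1.195 and -1.95 for Cxcr5 over Ccr7, lower in 3 of 3 mice for both (exact two-sided sign-flip p = 0.25, the smallest that 3 mice allow). Cxcl13 over Cxcr5 and Ccr7 over Cd3e were lower in 2 of 3 mice each (exact sign-flip p = 0.75 and 0.5).

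Between the genotypes, the libraries overlapped in each of these ratios. The mean log2 ratio in Foxp3ΔJag1 tdLN minus that in Foxp3Ctrl tdLN was 0.40 for Cxcl13 over Cxcr5 and -0.21 for Cxcr5 over Ccr7 (exact p = 0.3 for each, n = 3 each), and -0.03 for Cxcl12 over Cxcr4 and -0.08 for Ccr7 over Cd3e (exact p = 0.9 and 0.7, n = 3 each). Ccl21a over Ccl19 differed by 1.03 (exact p = 0.3, n = 3 each) on 1 to 5 Ccl21a reads per node, and could not be formed in tumours.

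**Figure D4:**
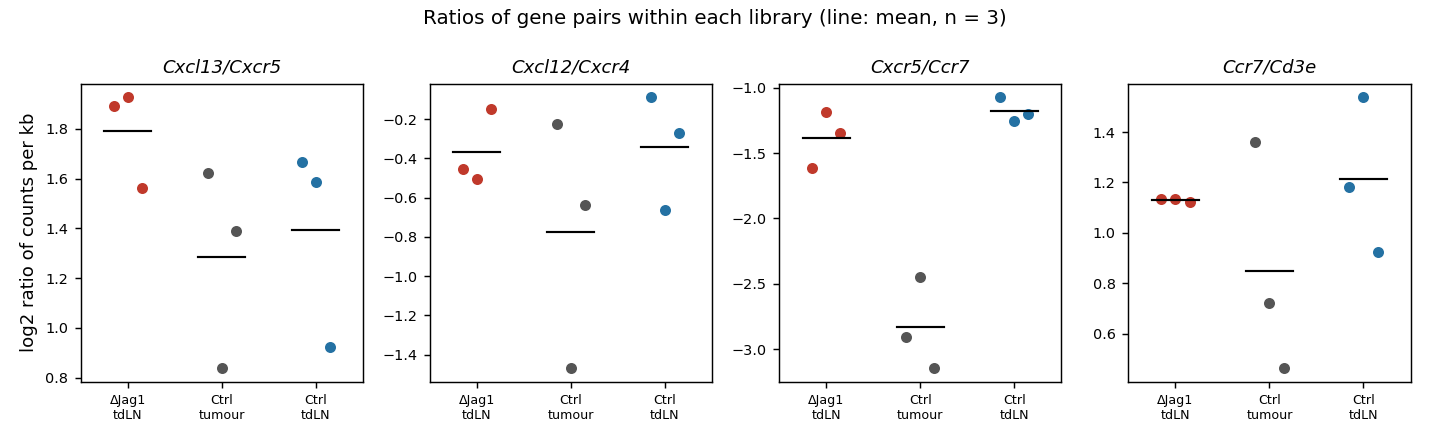
Log2 ratio of counts per kb for 4 gene pairs (one panel each, vertical axes not starting at 0) in the 3 libraries of each group, with a line at the mean. Tumours are below all nodes for Cxcr5 over Ccr7, and overlap the control nodes for the other 3 pairs.

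The genes around these axes were taken from 5 lists of ligand copies and atypical receptors, oxysterol genes, lymphotoxin and TNF inputs, receptor signalling, and other homing and egress receptors. In the genotype comparison 0 of 56 tested list genes were called by edgeR (Cxcl14, Hsd3b7 and Pik3cg, the 3 with an unadjusted p under 0.05, each had an edgeR adjusted p of 0.953), and the list medians lay between -0.10 and 0.04. Between tumour and node, 8 of 55 tested list genes were higher, 42 lower and 5 not called by edgeR, with a median log2 fold change of -2.37 beside -0.05 over all genes.

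Of 7 tested genes on the list of ligand copies, other ligands and atypical receptors, 3 were higher in tumour, 3 lower and 1 not called. The atypical receptors bind chemokines without signalling for migration: Ackr1, Ackr2 and Ackr4 were lower, Ackr3 was higher and Ccrl2 was not called, and the other higher genes were the ligands Mif and Cxcl14. Ackr4, the scavenger of Ccl19 and Ccl21, was at 0.337 ± 0.190 CPM in tumours and 6.90 ± 2.74 CPM in nodes, and Ackr1, a chemokine-binding receptor of venules, at 0.985 ± 0.465 CPM in tumours and 10.8 ± 2.18 CPM in nodes (SD, n = 3 each), lower by -4.27 and -3.40 on the log2 scale (edgeR adjusted p of 0.000151 and 7.23e-05). Ackr2, which scavenges inflammatory CC chemokines, was lower by a log2 fold change of -3.97 (edgeR adjusted p = 9.15e-06). Ackr3, the scavenger of Cxcl12, was by contrast at 8.70 ± 4.95 CPM in tumours and 3.49 ± 0.822 CPM in nodes (SD, n = 3 each), a log2 fold change of 1.36 (edgeR adjusted p = 0.0216). Mif, a cytokine that also binds Cxcr4, was at 597 ± 69.8 CPM in tumours and 83.1 ± 8.87 CPM in nodes (SD, n = 3 each; log2 fold change 2.90, edgeR adjusted p = 2.01e-06). Cxcl14, another chemokine, had a log2 fold change of 3.13 (edgeR adjusted p = 0.0404). Its call was lost under several settings, among them the mouse as a replicate block (edgeR adjusted p = 0.0805). Ccrl2 was not called (edgeR adjusted p = 0.0530). Ackr1, Ackr3, Ackr4 and Ccrl2 are not among the genes the rule took and were picked once their values were known.

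Lymphotoxin and TNF genes, which sustain Cxcl13, Ccl19 and Ccl21 production in stroma, were mostly lower in tumour. Of the 12 tested, 10 were lower in tumour and 2 higher. The ligand gene Ltb was at 5.20 ± 0.854 CPM in tumours and 511 ± 47.5 CPM in nodes (SD, n = 3 each; log2 fold change -6.56, edgeR adjusted p = 1.37e-07), and Nfkb2, which encodes p52, at 46.6 ± 3.74 CPM in tumours and 264 ± 5.42 CPM in nodes (SD, n = 3 each; log2 fold change -2.45, edgeR adjusted p = 6.03e-07). The 2 that were higher were receptors: Ltbr, the lymphotoxin beta receptor, at 113 ± 4.96 CPM in tumours and 23.5 ± 5.83 CPM in nodes, and Tnfrsf1a, a TNF receptor, at 176 ± 20.4 CPM in tumours and 76.0 ± 16.3 CPM in nodes (SD, n = 3 each), higher by 2.31 and 1.26 on the log2 scale (edgeR adjusted p of 3.02e-05 and 0.000486). The receptor genes Tnfrsf1b and Tnfrsf11a went the other way, at -2.28 and -1.53 on the log2 scale (edgeR adjusted p of 3.60e-06 and 0.000908). These 4 receptors were named after their values were seen. In the genotype comparison Ltb was at 540 ± 44.2 CPM in Foxp3ΔJag1 tdLN and 511 ± 47.5 CPM in Foxp3Ctrl tdLN (SD, n = 3 each, edgeR adjusted p = 0.956).

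The other oxysterol genes held to smaller differences than Gpr183. Of 8 tested, 1 was higher in tumour, 5 lower and 2 not called. Cyp27a1, a sterol 27-hydroxylase, was at 3.78 ± 0.536 CPM in tumours and 34.2 ± 2.88 CPM in nodes (log2 fold change -3.12, edgeR adjusted p = 1.22e-06), and the oxysterol-sensing nuclear receptor Nr1h3 at 7.14 ± 1.04 CPM in tumours and 35.8 ± 8.92 CPM in nodes (SD, n = 3 each; log2 fold change -2.28, edgeR adjusted p = 6.46e-05). Nr1h2, its relative, was at 89.5 ± 8.31 CPM in tumours and 126 ± 9.43 CPM in nodes (SD, n = 3 each; log2 fold change -0.43, edgeR adjusted p = 0.00440). Cyp7b1 and Hsd3b7, which make and break down the Gpr183 ligand, were the 2 that were not called, at -0.84 and 0.40 on the log2 scale (edgeR adjusted p of 0.0743 and 0.302). The gene that was higher was Cyp46a1, a cholesterol 24-hydroxylase (log2 fold change 1.36, edgeR adjusted p = 0.00616), and these 3 were named after their values were seen. Abca1, a cholesterol exporter, had a log2 fold change of -2.24 (edgeR adjusted p = 0.000640).

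Signal transducers and homing receptors were mostly lower in tumour. Of 16 tested signalling genes, 14 were lower, 1 higher and 1 not called. Rac2, a leukocyte GTPase, was at 27.2 ± 5.09 CPM in tumours and 673 ± 13.5 CPM in nodes (log2 fold change -4.58, edgeR adjusted p = 3.51e-07), while Gnai2, the inhibitory G protein subunit through which chemokine receptors signal, was at 547 ± 5.07 CPM in tumours and 866 ± 49.5 CPM in nodes (SD, n = 3 each; log2 fold change -0.61, edgeR adjusted p = 0.00111). Pik3cg, a kinase downstream of these receptors, and Grk2, which switches them off, were at -3.66 and -2.48 on the log2 scale (edgeR adjusted p of 5.12e-07 and 6.86e-07). The higher gene was the G protein subunit gene Gnb1 (log2 fold change 1.03, edgeR adjusted p = 4.91e-05) and the gene not called was Rgs16, both named after their values were seen. Among 12 other homing and egress receptors, 10 were lower, 1 higher and 1 not called. Ccr6 was at 0.0910 ± 0.0168 CPM in tumours and 60.1 ± 8.49 CPM in nodes (SD, n = 3 each; log2 fold change -9.26, edgeR adjusted p = 9.19e-08). Ccr9 and the integrin gene Itgal were at -5.37 and -4.22 on the log2 scale (edgeR adjusted p of 9.91e-07 and 1.36e-06), and Ccr10 was not called. S1pr2 was the gene that was higher, named after its value was seen, at 52.3 ± 7.49 CPM in tumours and 24.6 ± 1.13 CPM in nodes (SD, n = 3 each; log2 fold change 1.14, edgeR adjusted p = 0.000124). In germinal centres this sphingosine phosphate receptor keeps B cells confined.

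**Figure D5:**
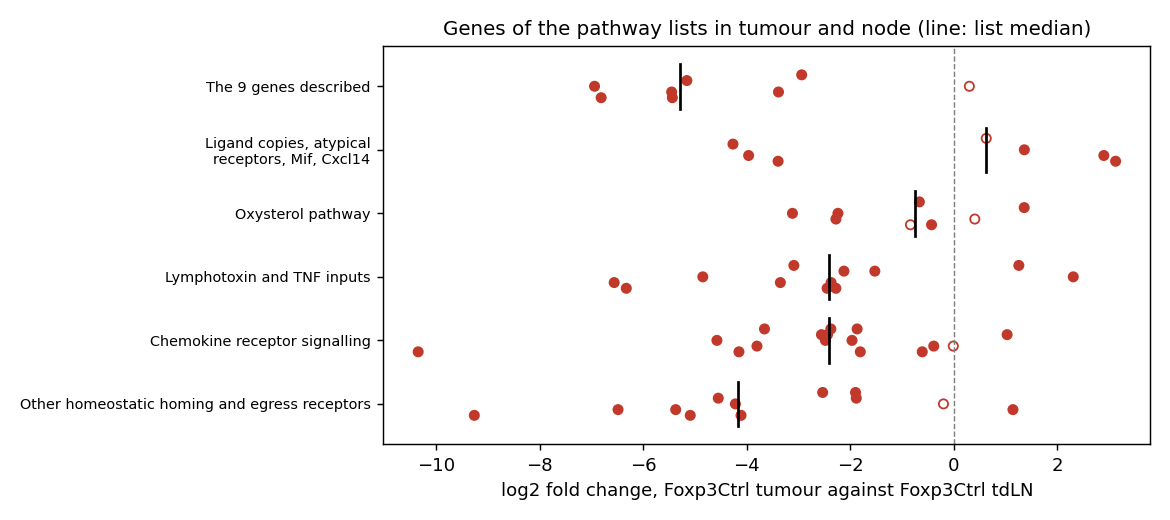
Log2 fold change of Foxp3Ctrl tumour against Foxp3Ctrl tdLN (horizontal axis) for each tested gene of the 9 described and of the 5 pathway lists, 1 point per gene, filled where the edgeR adjusted p is under 0.05, with a line at the list median. The 8 tested genes among the 9 described have a median of -5.30, and the list of ligand copies and atypical receptors has members on both sides of 0.

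The genes whose profiles over the 9 libraries lay closest were found by the root mean square difference of log2(CPM + 0.5), each profile centred on its own mean, among 11433 protein-coding genes with a mean of at least 5 CPM. For Cxcl13 they were H2-Oa and B3gnt5 at differences of 0.269 and 0.299, and for Cxcr5 A430078G23Rik and Cacna1e at 0.111 and 0.175. For Ccr7 they were Rhoh and Arhgap45 (0.110 and 0.116), for Gpr183 Kmo and Tnfrsf13b (0.157 and 0.187), for Cxcl12 Lcp1 and Cep85 (0.0981 and 0.110), for Cxcr4 Rflnb and Dedd2 (0.0949 and 0.132), and for Ch25h Irf1 and Mcub (0.190 and 0.208). Cxcl13 thus had the most distant nearest neighbour of these 7. For Ccl19 (Atg16l2 and Gpm6b) and Ccl21a (Dctn6 and Nfx1) the offset of 0.5 CPM is of the order of the levels themselves and flattens the profile, so the likeness there says little. The offset also weighs on the tumour levels behind the distances of Cxcl13 and Cxcr5. In tumours H2-Oa and B3gnt5 were at 0.529 and 0.910 CPM, and A430078G23Rik and Cacna1e at 0.377 and 0.110 CPM. Those distances, and the rank of Cxcl13 among the 7, thus depend partly on the offset. For the 7 genes called lower in tumour, the profiles are dominated by the gap between tumour and node, which the 9 libraries share by design. Ch25h has no such gap.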

How the data were processed

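Whole nodes and whole tumours were sequenced as bulk RNA. The authors deposited raw counts per gene as whole numbers, in a node table and a tumour table. The authors used Trimmomatic 0.36, STAR 2.5.2b and featureCounts of Subread 1.5.2 on GRCm38, per the submitters' processing notes. The sources used here give no annotation, strand setting or treatment of multi-mapped reads, and the labels' protocols do not say whether poly(A) RNA was selected or ribosomal RNA removed. All samples carry batch 1 and had an RNA integrity number over 9, per the labels' protocols.

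Of 49315 identifiers, 49056 matched GENCODE M21. Of 13 samples, 9 libraries were used. A further 3 columns of the tumour table match no sample and were not used, and the Foxp3ΔJag1 tumours were not analysed here. CPM divides by the total count of a library. Each comparison was fitted alone with edgeR 4.0.16 in R 4.3.3 (TMM, filterByExpr, robust quasi-likelihood test, Benjamini-Hochberg adjustment over all genes tested, threshold 0.05). The test was also run on simulated counts with known changes. Replicates differed by more than sampling noise (chi-square per degree of freedom 18.8 to 83.6), so none was a copy or a resequencing of the same library. This check cannot tell separate animals from separate preparations of the same RNA. Whether replicates came from separate animals is taken from the mouse codes of the library names. In the tissue comparison these codes pair the libraries by mouse, and correlations of the deviations between tumour and node of a mouse were -0.0724 to 0.123.

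The genes described, the lists and the tests were chosen with earlier results of these data known. The rule for named genes took all 9 genes, from each list the 2 most abundant and the 2 with the smallest p between tumour and node, and the 2 protein-coding genes most like each gene. Results on 1 gene that this rule took and on 1 gene pair among the ratios are not reported here. Alternatives were DESeq2 1.42.0, its size factors in edgeR, library size only, limma-voom (limma 3.58.1), no filter, a minimum of 1 CPM in 3 libraries, the replicate block, a joint fit of 9 libraries, leaving out each replicate, a count of 1 added in ratios, and, both chosen after seeing the data, summed copies and ratio differences within each mouse.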

Additional observations from a re-analysis of the deposited data

How the results depend on the processing

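Under all alternatives run, 0 of the 9 genes were called in the genotype comparison, and between tumour and node 7 were called lower under each alternative except without a filter and with summed copies, where Ccl21a joined them to make 8. Over all genes, the genotype comparison called 6 genes higher and 1 lower by edgeR. The counts were 20 higher and 24 lower with DESeq2, 13 higher and 3 lower without a filter, and 2 lower with limma-voom, and leaving out a replicate gave 5 to 13 higher and 1 to 10 lower. With the replicate number as a block 5 genes were lower, but node numbers only name samples, since the library names give the genotypes different mouse codes. The deviations of same-numbered nodes correlated at -0.188 to 0.0418. Such correlations cannot decide pairing, because those between tumour and node of a mouse were -0.0724 to 0.123. In the tissue comparison the block, here the mouse, kept the count of the 9 genes called lower at 7. The mean ratio differences do not change with the mouse as block, and the exact sign-flip p over 3 mice was 0.25 to 0.75. The cause of these shifts was not tested.

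Uncalled values near 0 changed sign when a replicate was left out. In the genotype comparison the log2 fold change ranged from -0.12 to 0.25 for Ccl19, -0.15 to 0.072 for Cxcl12, -0.15 to 0.056 for Cxcr4 and -0.25 to 0.056 for Gpr183, and between tumour and node from -0.53 to 0.68 for Ch25h. The log2 ratio difference of Cxcl13 over Cxcr5 between tumour and node ranged from -0.34 to 0.11, and between genotypes that of Cxcl12 over Cxcr4 from -0.19 to 0.10 and that of Ccr7 over Cd3e from -0.23 to 0.080. Depth limits Ccl21a, with at most 5 reads per node.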
